A study of Mus musculus with 33 samples.

Results

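Grem1-high Cd81 fibroblasts, also called trophocytes, are stromal cells of the gut wall that were examined here in mouse colon. They were chosen from 3 single-cell RNA libraries by a gate on unique molecular identifiers (UMIs, 1 per captured transcript). Barcodes counted as cells from 1000 UMIs and 500 detected genes upwards, provided that mitochondrial transcripts made up no more than 20% of UMIs. A gated Cd81 cell also had at least 1 UMI of Cd81, no UMI of Pi16, under 0.2% of its UMIs from Adamdec1 and fewer than 2 UMIs of the endothelial genes Pecam1 and Cdh5 together. Grem1-high cells were those gated cells in which Grem1 made up at least 0.1% of UMIs. There were 3875 of them among 5800 gated Cd81 cells and 17652 cells in all. They were compared within each library with 1196 Grem1-low cells, which passed the same gate with Grem1 under 0.03% of UMIs. The other 729 gated cells lay between these limits and are called Grem1-middle. The levels of Grem1, Cd81, Pi16, Adamdec1, Pecam1 and Cdh5 chose the cells, so they are described and not tested.

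The series concerns graded BMP signalling in intestinal crypts and the stromal cells around them. All 3 libraries came from colon of untreated mice, and the labels give adult mice of both sexes for the study, without the sex of a library. The whole mesenchyme library was made from EpCAM-negative, CD45-negative cells of mice whose genotype is given as control. The 2 GFP-low libraries came from PdgfraH2BeGFP mice, which carry a nuclear green fluorescent protein under the Pdgfra gene, and were sorted for a low GFP signal. The sort therefore decided part of what those libraries hold, and GFP itself is not among the measured genes. The labels do not say whether the 2 GFP-low libraries came from separate mice, so p-values measure the spread between these 3 libraries only. Values below are given in the order whole mesenchyme, GFP-low replicate 1, GFP-low replicate 2.

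Trophocytes lie below the crypt base. Grem1 is a secreted protein that binds bone morphogenetic proteins (BMPs) and keeps them from their receptors. BMPs push intestinal epithelial cells to differentiate, whereas Wnt ligands and R-spondins sustain stem cells, so stromal BMP antagonists and R-spondins together define much of the stem cell niche. Cd81 is a membrane tetraspanin used to sort these cells, and Ackr4 is a scavenging receptor for homing chemokines that has been used as a trophocyte marker.

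The libraries held between 39190629 and 52313765 UMIs, and 4834 to 6793 cells passed the quality limits in each. Between 6 and 11 cell barcodes were shared by any pair of libraries. Xist RNA was at 509 CPM (UMIs per 1000000 UMIs of a class) in Grem1-high cells of the whole mesenchyme library and at 0.407 and 0.0638 CPM in those of the GFP-low libraries. Xist is the RNA of the inactive X chromosome in female cells, so it goes against a mix of both sexes in either GFP-low library, and the libraries differ in this sign of sex as well as in sort and genotype. Barcodes with 1 to 100 UMIs, which hold mostly free RNA, contained Grem1 at 340, 1124 and 1495 CPM, so single Grem1 UMIs are not evidence of expression in a cell. Summed Grem1-low cells held Grem1 at 53.6, 66.2 and 71.7 CPM.

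Grem1-high cells numbered 278, 1496 and 2101. They made up 54.8% of gated Cd81 cells in the whole mesenchyme library (exact 95% binomial interval 50.4 to 59.2), 65.5% in GFP-low replicate 1 (63.5 to 67.5) and 69.8% in GFP-low replicate 2 (68.2 to 71.5). Of all cells they were 4.09%, 31.0% and 34.9%, and the GFP sort can set this difference. With 1 whole mesenchyme library no test between the sorts was made, and the intervals cover counting error only.

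Within the Grem1-high cells the median Grem1 share of UMIs was 0.358%, 0.330% and 0.378%, and the highest cell reached 1.18%, 1.35% and 1.55%. The distribution had no gap at the limit. Just inside it, at 0.1 to 0.12%, were 10, 63 and 97 cells with medians of 5.5, 7 and 8 Grem1 UMIs, and just outside, at 0.08 to 0.1%, were 19, 96 and 98 cells with medians of 5, 5 and 6. Grem1-high cells were deeper than Grem1-low cells in each library, with median UMIs of 6016.5 against 3739 in whole mesenchyme, 6900 against 5492 in GFP-low replicate 1 and 7594 against 7178 in GFP-low replicate 2. Cd81 was not higher with Grem1: its summed level was 507, 594 and 434 CPM in Grem1-high cells and 752, 633 and 471 CPM in Grem1-low cells.

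The label was checked on Ackr4, the marker that the gate did not use. Ackr4 stood at 556, 675 and 775 CPM in Grem1-high cells, at 221, 457 and 554 CPM in Grem1-low cells and at 4.20, 19.0 and 31.6 CPM in Adamdec1 fibroblasts. After thinning every cell to 1000 UMIs, 33.1%, 42.1% and 51.8% of Grem1-high cells had an Ackr4 UMI, against 73.0%, 84.8% and 92.6% before thinning. Free RNA held Ackr4 at 58.4, 547 and 467 CPM. In the endothelial cells of the whole mesenchyme library, from which lymphatic ones were not excluded, the thinned share was 0.472% at a median depth of 3268 UMIs. In Adamdec1 cells of GFP-low replicate 1 it was 2.01% at 6825 UMIs. Ackr4 in Grem1-high cells lay far above these shares, and it was also present in Grem1-low cells, of which 9.25%, 29.0% and 37.4% had a UMI after thinning. Of the Pi16-positive Cd81 cells described below, 31.4%, 32.8% and 40.2% had one. Ackr4 therefore sets Grem1-high cells apart from Adamdec1 cells but does not by itself tell them from the other Cd81 cells. Its difference between Grem1-high and Grem1-low cells did not pass the test (log2 difference 0.82 ± 0.20 SE, edgeR's quasi-likelihood test with Benjamini-Hochberg adjustment, adjusted p = 0.14).

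Markers of some other cell types stood far higher in Grem1-low than in Grem1-high cells, to a different extent in each library. In whole mesenchyme, the summed level of 7 smooth muscle and myofibroblast genes was 1646 CPM in Grem1-low and 291 CPM in Grem1-high cells. Pericyte genes summed to 1037 against 25.7 CPM, blood endothelial genes to 1005 against 45.2 CPM and glial genes to 776 against 3.76 CPM. In the GFP-low libraries the muscle and myofibroblast genes were as high in Grem1-high cells, at 147 and 235 CPM against 121 and 209.6 CPM. Most of these Grem1-high sums was Hhip (108 and 207 CPM), which is also in the Hedgehog response list, and Actg2 and Cnn1 were at 0 UMIs. At least 2 UMIs of the 7 genes were found in 18.7%, 18.9% and 29.5% of Grem1-high cells. Lymphatic genes summed to 99.7, 149 and 145 CPM in Grem1-high cells and to 400.2, 139 and 161 CPM in Grem1-low cells. Nearly all of it in Grem1-high cells was Pdpn, at 94.7, 148 and 144 CPM. In whole mesenchyme, all 4 mast cell genes, 5 of 6 T or innate lymphoid genes (all but Thy1) and 5 of 6 epithelial genes (all but Muc2) were at 0 UMIs in Grem1-high cells. In the GFP-low libraries the Grem1-low cells instead held B or plasma cell genes, at 1629 and 307 CPM against 11.6 and 11.2 CPM in Grem1-high cells, most of it Jchain. Only 2.13% and 1.62% of these Grem1-low cells had at least 2 UMIs of the B or plasma cell genes, so few cells carried the sums. Only 33.0% of whole mesenchyme Grem1-low cells had a Pdgfra UMI, against 79.5% of Grem1-high cells, while in the GFP-low libraries the 2 classes stood at 61.8% against 62.0% and 53.3% against 61.7%.

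**Figure D1:**
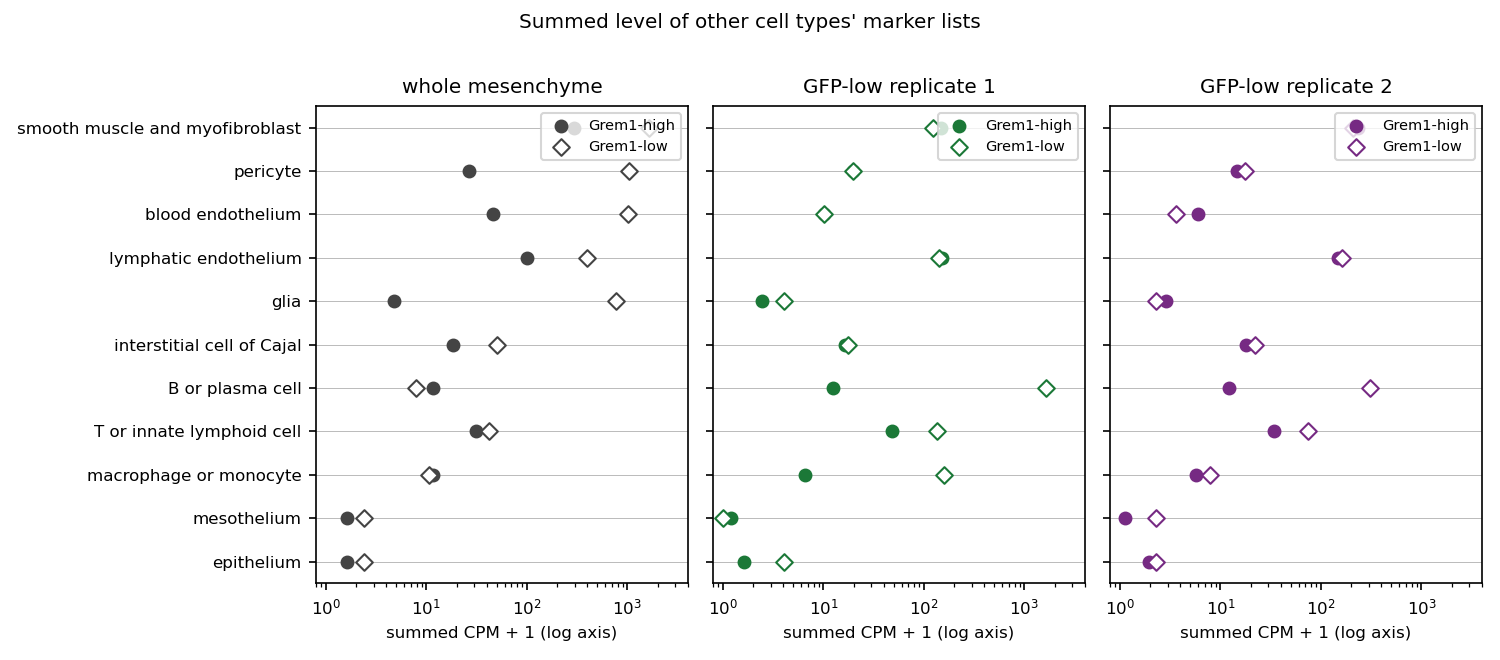
Summed level (CPM + 1, log axis) of the marker lists of 11 other cell types in Grem1-high cells (filled circles) and Grem1-low cells (open diamonds), one panel per library. In whole mesenchyme the Grem1-low cells lie far to the right for muscle, pericyte, blood endothelial and glial genes (1646, 1037, 1005 and 776 CPM), and in GFP-low replicate 1 for B or plasma cell genes (1629 CPM).

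Because of these markers the comparisons were also made in marker-filtered cells, in both classes those with at least 1 UMI of Pdgfra and fewer than 2 UMIs over 62 marker features of other cell types. This kept 180 of 278, 788 of 1496 and 1125 of 2101 Grem1-high cells and 38 of 173, 254 of 469 and 255 of 554 Grem1-low cells. The share of Grem1-high among gated cells then was 73.2%, 64.9% and 71.9%. Doublets were not called, and removing the 6% of cells with the most UMIs left the shares at 54.7%, 65.7% and 70.0%.

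UMI counts were summed per library and class, and the sums were tested with edgeR's quasi-likelihood test with library as a block. Of 10534 genes tested, 77 were higher (0.731%) and 94 lower (0.892%) in Grem1-high than in Grem1-low cells at an adjusted p under 0.05, 171 in all (1.62%). The direction was the same in each of the 3 libraries for 170 of them. At an unadjusted p under 0.05 there were 1318. In marker-filtered cells 9425 genes were tested, with 452 higher (4.8%) and 433 lower (4.59%). Of the 171 calls, 144 were called there too (84.2% of them, and 16.3% of the 885 calls, or 9.39%, in marker-filtered cells), 143 with the same sign, 24 were not tested and 3 did not pass. The median log2 difference over all tested genes was -0.001, and 0.009 in marker-filtered cells. Without the whole mesenchyme library the counts were 541 and 582, without GFP-low replicate 1 they were 41 and 53, and without GFP-low replicate 2 they were 14 and 31. Of the 42 genes named below by the rule under the processing that passed, 42, 28 and 20 still did in these 3 fits. Of the 11 other list members that passed, 11, 5 and 0 did: without GFP-low replicate 2 the calls of Wnt10b (log2 -3.15), Fgf1 (-1.92), Ackr2 (-1.56), Nid2 (-3.05), Lamb2 (-0.91), Cd44 (-0.78), Fgfr2 (1.37), Meox2 (-3.35), Anxa3 (-1.0), Limch1 (-2.41) and Ugdh (-1.30) ended. In marker-filtered cells 39 of the 41 that could be tested passed with the same sign, and 39, 37 and 38 did so when each library was left out in turn. Of 141 list members called in marker-filtered cells, 136 kept their call there when whole mesenchyme was dropped, 105 without GFP-low replicate 1 and 95 without replicate 2.

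**Figure D2:**
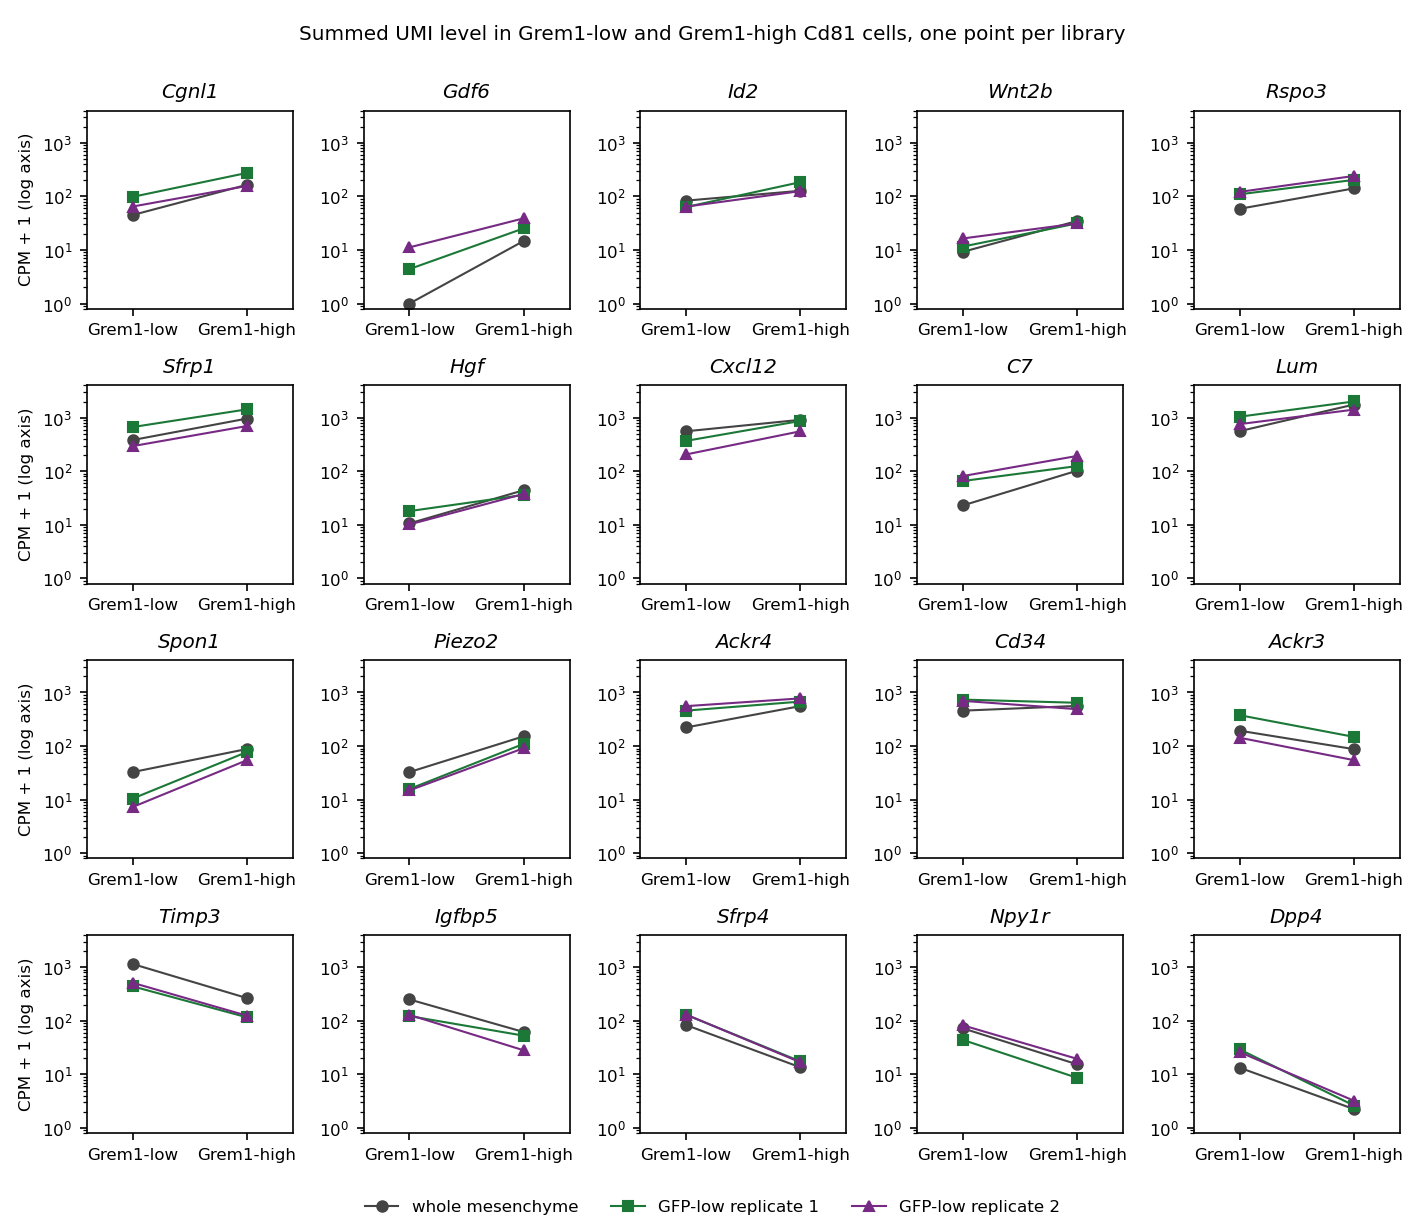
Summed UMI level (CPM + 1, log axis) of 20 genes in Grem1-low and Grem1-high cells, one line per library. Spon1 and Piezo2 rise steeply in all 3 libraries, Cd34 changes little, Ackr4 rises more in whole mesenchyme (221 to 556 CPM) than in the GFP-low libraries, and Sfrp4, Npy1r and Dpp4 fall steeply, Sfrp4 from 82.5, 129 and 130.0 CPM to 12.5, 16.5 and 15.8 CPM.

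None of the 10 genes of the BMP antagonist list reported here passed the test in all gated cells, and their median log2 difference was 0.09. Chrdl1, which encodes a chordin-like antagonist, was at 25.7, 18.3 and 16.6 CPM in Grem1-high and at 13.8, 30.3 and 18.8 CPM in Grem1-low cells, and its difference of -0.22 ± 0.26 did not pass (edgeR adjusted p = 0.811). Fst, which encodes the activin- and BMP-binding follistatin, was at 8.15, 22.2 and 12.1 CPM against 55.0, 26.9 and 18.8 CPM, a difference of -0.80 ± 0.34 that did not pass either (edgeR adjusted p = 0.408). Both genes overlapped between the classes. Fstl1, which encodes a secreted follistatin-like protein, was at 810, 772 and 717 CPM against 976, 1150 and 1194 CPM, lower in each library, a difference that did not pass (log2 -0.48 ± 0.15, edgeR adjusted p = 0.253). Of 9 genes of the list reported in marker-filtered cells, Gas1, which is a membrane co-receptor for Hedgehog ligands and not itself a BMP antagonist, rose (log2 0.39 ± 0.10, edgeR adjusted p = 0.0065) and 3 fell, Chrdl1 by 0.83, Fst by 0.82 and Fstl1 by 0.66 on the log2 scale (median -0.05). The filtered calls of Gas1 (log2 0.35) and Chrdl1 (log2 -0.54) ended without GFP-low replicate 1 and that of Fst (log2 -0.84) without GFP-low replicate 2.

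Of 10 BMP and GDF ligands tested, Gdf6 rose and none fell. Gdf6, a ligand of the BMP family, was at 13.8, 24.4 and 38.1 CPM in Grem1-high and at 0, 3.41 and 10.2 CPM in Grem1-low cells. The 0 in whole mesenchyme rests on 727091 UMIs and allows up to 4.13 CPM. The difference was 2.32 ± 0.29 (edgeR adjusted p = 0.0183), and it lost its call without GFP-low replicate 1 (log2 2.22) or replicate 2 (log2 3.14). Bmp4 was at 373, 446 and 545 CPM against 96.3, 257 and 357 CPM, which did not pass in all gated cells (log2 1.10) and did in marker-filtered cells (log2 0.67, edgeR adjusted p = 4.04e-07). In marker-filtered cells Gdf6 and Bmp4 rose and Gdf15 and Bmp6 fell, of 9 tested, and the calls of Gdf15 and Bmp6 each ended without 1 of the GFP-low libraries. Of the receptors and response genes, 1 of 20 tested passed. It was Id2, a transcriptional regulator that BMP signalling induces in many cells, at 127, 184 and 125 CPM against 82.5, 62.4 and 63.6 CPM (log2 1.14 ± 0.17, edgeR adjusted p = 0.0297). The Id2 call ended without GFP-low replicate 1 (log2 0.89) and without GFP-low replicate 2 (log2 1.19), and in marker-filtered cells its difference was 1.30 ± 0.12. Msx1 also rose and Smad7 fell in marker-filtered cells, of 18 tested, and both calls ended without either GFP-low library. The median over the 10 ligands was -0.08 and over the 20 receptors and response genes 0.05.

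Rspo3 and Wnt2b rose among 11 R-spondins and Wnt ligands tested, and Wnt10b fell. Rspo3, a secreted amplifier of Wnt signalling that acts through LGR receptors, was at 141, 203 and 240 CPM in Grem1-high and at 57.8, 109 and 121 CPM in Grem1-low cells. All Grem1-high sums lay above all Grem1-low sums, which is a description only, since the share of all genes without overlap was not counted. The difference was 1.07 ± 0.13 (edgeR adjusted p = 0.017), and 0.86 ± 0.11 in marker-filtered cells. After thinning to 1000 UMIs, 12.2%, 17.3% and 20.4% of Grem1-high cells had an Rspo3 UMI, against 5.20%, 9.59% and 10.1% of Grem1-low cells and 0.472% of endothelial cells in whole mesenchyme. Adamdec1 cells had 2.39%, 5.17% and 5.29%. Free RNA held Rspo3 at 21.8, 100.4 and 112 CPM, in the GFP-low libraries close to the Grem1-low level. Adamdec1 cells of the GFP-low libraries held less Rspo3 than the free RNA there, at 54.8 and 45.1 CPM. How much of the Rspo3 in Grem1-low cells came from free RNA was not tested.

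Wnt2b, a Wnt ligand made by gut stroma, was at 33.9, 30.4 and 30.4 CPM against 8.25, 10.6 and 15.4 CPM (log2 1.35 ± 0.19, edgeR adjusted p = 0.0288). Wnt10b was at 0, 0.712 and 0.319 CPM in Grem1-high and at 6.88, 4.92 and 7.06 CPM in Grem1-low cells, a low-level gene in both. Rspo1 was at 22.6, 12.8 and 9.57 CPM against 8.25, 18.5 and 7.06 CPM (log2 0.20 ± 0.34), a difference that did not pass (edgeR adjusted p = 0.886). Rspo2 was too low to be tested here, at 6.90, 7.53 and 2.43 CPM in Grem1-high cells and at 0, 0 and 0.523 CPM in Grem1-low cells, where the zeros allow up to 4.13 and 1.14 CPM. The list's median was 0.18, and in marker-filtered cells Rspo3 and Wnt2b rose and none of 9 fell, Wnt2b without a call there when GFP-low replicate 1 was left out (log2 0.79). Rspo3 lost its call without GFP-low replicate 2 (log2 1.11), and Wnt2b without either GFP-low library (log2 1.33 without replicate 1 and 1.71 without replicate 2).

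Secreted Frizzled-related proteins, which bind Wnt ligands outside the cell, split in direction. Sfrp1 was at 961, 1429 and 697 CPM in Grem1-high and at 381, 666 and 293 CPM in Grem1-low cells (log2 1.27 ± 0.14, edgeR adjusted p = 0.0128). Within each library it was more than 2-fold higher, and all Grem1-high sums lay above all Grem1-low sums, the nearest being 697 and 666 CPM. The rule that named Sfrp1 required the same direction in each library, so the lack of overlap adds no support. Sfrp4 went the other way, at 12.5, 16.5 and 15.8 CPM against 82.5, 129 and 130.0 CPM (log2 -2.92 ± 0.13, edgeR adjusted p = 0.00123). The Sfrp4 call held in all 19 alternatives run, and the Sfrp1 call ended without GFP-low replicate 2 (log2 1.27). These 2 were the genes that passed among 6 Wnt inhibitors and response genes tested, whose median was 0.01, and in marker-filtered cells Dkk3 rose as well (median 0.43), a call that ended without GFP-low replicate 2.

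Of 20 growth factor genes tested, Hgf and Ereg rose and Fgf1 fell, with a median of 0.17. Hgf, the ligand of the epithelial receptor Met, was at 43.3, 35.2 and 36.8 CPM against 9.63, 17.03 and 9.16 CPM (log2 1.64 ± 0.24, edgeR adjusted p = 0.0291). Ereg, which encodes an EGF receptor ligand, was at 213, 99.5 and 72.5 CPM against 124, 50.7 and 51.5 CPM (log2 0.79 ± 0.12, edgeR adjusted p = 0.0367). Free RNA held Ereg at 923, 135 and 199 CPM, above the Grem1-high level in each library, and its part in the Ereg levels was not tested. Fgf1 was at 6.27, 2.65 and 2.17 CPM against 34.4, 7.95 and 10.2 CPM. Hgf lost its call without GFP-low replicate 2 (log2 1.42), and Ereg without GFP-low replicate 1 (log2 0.71) or replicate 2 (log2 0.93). In marker-filtered cells 6 growth factor genes rose and 3 fell, of 17 tested. None of 10 Hedgehog response and subepithelial genes passed in all gated cells (median 0.31), Pdgfra among them at 372, 179 and 154 CPM against 221, 211 and 137 CPM (log2 0.25 ± 0.20, edgeR adjusted p = 0.701). In marker-filtered cells Hhip and Ptch1 rose and Gli3 fell (median 0.15), and without GFP-low replicate 2 the calls of Ptch1 and Gli3 ended, that of Gli3 also without replicate 1. Of the 11 TGF-beta and activin genes reported here, Tgfb1 fell, from 78.4, 48.4 and 46.6 CPM to 40.1, 29.6 and 25.8 CPM (log2 -0.78 ± 0.12, edgeR adjusted p = 0.0304). The Tgfb1 call did not hold in marker-filtered cells (log2 -0.46 ± 0.16, adjusted p = 0.0566) nor without GFP-low replicate 1 (log2 -0.82) or replicate 2 (log2 -0.77). The median of the 11 was 0.16. In marker-filtered cells 3 of them rose (Tgfbi, Tgfb3 and Ltbp1) and 3 fell (Tgfb2, Skil and Tgfbr2), with a median of -0.15, and the calls of Tgfb2 and Skil ended without GFP-low replicate 1, that of Tgfb2 also without replicate 2.

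Atypical chemokine receptors take up chemokines without signalling as the classical receptors do, and 3 of them fell with Grem1. Ackr3, which scavenges CXCL12, was at 86.5, 147 and 53.5 CPM in Grem1-high and at 193, 376 and 142 CPM in Grem1-low cells (log2 -1.27 ± 0.12, edgeR adjusted p = 0.00839). Ackr1 was at 11.9, 18.4 and 11.6 CPM against 20.6, 43.9 and 33.2 CPM (log2 -1.28 ± 0.16, edgeR adjusted p = 0.0169), and Ackr2 at 3.14, 3.05 and 4.47 CPM against 11.0, 8.70 and 13.3 CPM. Ackr4 had the opposite sign, as described above, and in marker-filtered cells its difference of 0.34 ± 0.08 passed (edgeR adjusted p = 0.00295), a call that ended without either GFP-low library (log2 0.30 each). These 3 were all that passed among 12 decoy and homing molecules (median -0.07), with 1 higher and 8 lower in marker-filtered cells (median -0.35). Cd34, a sialomucin of stromal progenitors and vessels, was at 560, 641 and 487 CPM against 457, 735 and 697 CPM, and its difference of -0.10 ± 0.19 did not pass (edgeR adjusted p = 0.897), while in marker-filtered cells it was -0.38 ± 0.08 (adjusted p = 0.000671), and -0.34 without GFP-low replicate 2, where it did not pass. The calls of Ackr3 and Ackr1 ended without GFP-low replicate 2 (log2 -1.21 and -1.09), and that of Ackr1 also without GFP-low replicate 1 (log2 -1.22).

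Cxcl12, the ligand that Ackr3 scavenges, was higher in Grem1-high cells in each library, at 911, 868 and 557 CPM against 556, 368 and 205 CPM (log2 1.19 ± 0.17, edgeR adjusted p = 0.0259). Cxcl10, an interferon-induced chemokine, was at 1966, 1001 and 1625 CPM against 1047, 603 and 719 CPM (log2 0.99 ± 0.15, edgeR adjusted p = 0.0359). These 2 were the calls among 28 chemokine and cytokine genes, with a median of 0.10. Both ended without GFP-low replicate 1 (log2 1.16 and 1.13) and without GFP-low replicate 2 (log2 1.03 and 0.87). Free RNA held Cxcl12 at 1563, 1104 and 679 CPM, above the Grem1-high level in each library, and Cxcl10 at 2200, 1038 and 1154 CPM. The part of free RNA in these levels was not tested. In marker-filtered cells 8 of 23 rose, among them Cxcl13, Kitl and Tslp, and 6 fell, among them the monocyte-attracting Ccl2 and Ccl7 and the alarmin Il33. The Il33 call ended there whichever library was left out, and those of Tslp, Il1r1 and Cxcl2 without GFP-low replicate 2. The calls of Csf1, Flt3l and Tnfsf13b ended there without either GFP-low library. Ccl2 was at 790, 457 and 771 CPM against 1762, 797 and 1202 CPM over all gated cells, where it did not pass (log2 -0.82, edgeR adjusted p = 0.0559).

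Of the 11 complement and acute phase genes reported here, C7, a component of the membrane attack complex, rose from 22.01, 64.7 and 80.3 CPM to 102, 124 and 192 CPM (log2 1.33 ± 0.21, edgeR adjusted p = 0.0367). The call ended without GFP-low replicate 2 (log2 1.42). None of the 11 fell, and their median of 0.44 stands beside -0.001 for all genes. C3, the central complement protein, was at 6173, 7823 and 4467 CPM against 2683, 7551 and 3818 CPM, so the classes lay furthest apart in whole mesenchyme, whose Grem1-low cells held the most muscle, pericyte, endothelial and glial RNA. Its difference did not pass in all gated cells (log2 0.54) or in marker-filtered cells (log2 0.14). In marker-filtered cells 4 of 9 of these genes rose (Saa3, C7, Cfb and C2) and the median was 0.14, with the call of Cfb ending without either GFP-low library. None of 9 lipid and adipose-related genes passed (median -0.15), and in marker-filtered cells Apoe alone did, of 8. None of 13 interferon response genes and none of 18 dissociation response genes passed in all gated cells (medians 0.12 and 0.05). In marker-filtered cells 4 interferon response genes rose and none fell, and 3 dissociation response genes rose and 2 fell.

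The matrix genes did not move as a block. None of 19 collagen genes passed in all gated cells (median 0.24), and Col1a1 was at 2404, 2767 and 1141 CPM against 1213, 2728 and 1226 CPM. In marker-filtered cells Col12a1 rose and Col4a5 and Col5a3 fell (median -0.08), and the calls of Col12a1 and Col4a5 ended without GFP-low replicate 2, that of Col4a5 also without replicate 1. Of 30 matrix glycoproteins, Spon1 and Mfap4 rose and the basement membrane genes Nid2 and Lamb2 fell (median -0.11). Spon1, which encodes the secreted spondin, was at 87.2, 76.5 and 53.5 CPM against 31.6, 9.46 and 6.28 CPM (log2 2.66 ± 0.28, edgeR adjusted p = 0.0121). Mfap4, a microfibril-associated protein of elastic fibres, was at 584, 565 and 318 CPM against 161, 167 and 172 CPM (log2 1.53 ± 0.21, edgeR adjusted p = 0.0246), and its call ended without GFP-low replicate 1 (log2 1.43). In marker-filtered cells 7 of 29 glycoproteins rose and 15 fell (median -0.37), and Fn1, the gene of fibronectin, fell by 1.20 on the log2 scale there.

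Of 16 proteoglycan and hyaluronan genes, Lum rose, and Cd44 and Has2 fell (median -0.02). Lum, which encodes the collagen-binding lumican, was at 1756, 2006 and 1413 CPM against 558, 1041 and 756 CPM (log2 1.21 ± 0.20, edgeR adjusted p = 0.0416). Has2, a hyaluronan synthase, was at 40.8, 16.7 and 11.2 CPM against 121, 28.0 and 36.4 CPM (log2 -1.30 ± 0.19, edgeR adjusted p = 0.03), and Cd44, the hyaluronan receptor, at 33.2, 75.3 and 94.7 CPM against 67.4, 122 and 158 CPM. In marker-filtered cells 3 of 15 rose and 8 fell. There the calls of Gpc3 and Sdc2 ended without either GFP-low library, and those of Cd44 and Hspg2 without GFP-low replicate 2. Over all gated cells Lum lost its call without GFP-low replicate 1 (log2 1.35) or replicate 2 (log2 1.35), and Has2 without GFP-low replicate 2 (log2 -1.09). Of 20 matrix proteases and inhibitors, Timp3, an inhibitor of metalloproteinases held in the matrix, fell from 1151, 440 and 512 CPM to 265, 115 and 124 CPM (log2 -1.98 ± 0.12, edgeR adjusted p = 0.00228). All Timp3 sums of Grem1-high cells lay below all those of Grem1-low cells. Timp3 was named by a rule that required the same direction in each library, so this adds no support. The list's median was 0.10. In marker-filtered cells 2 genes of the list rose (Mmp3 and Lox) and 6 fell (median -0.08).

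Among 12 IGF-binding and growth factor receptor genes, Ntrk3 and Fgfr2 rose and Igfbp5 fell (median 0.17). Ntrk3, the receptor of neurotrophin-3, was at 30.1, 35.0 and 42.5 CPM against 6.88, 11.0 and 6.54 CPM (log2 2.22 ± 0.24, edgeR adjusted p = 0.0121), and its call ended without GFP-low replicate 2 (log2 1.82). Fgfr2, a receptor of fibroblast growth factors, was at 55.8, 35.1 and 45.8 CPM against 17.9, 15.9 and 20.4 CPM. Igfbp5, a secreted protein that binds insulin-like growth factors, was at 60.8, 51.9 and 27.2 CPM against 250.3, 122 and 129 CPM (log2 -1.78 ± 0.19, edgeR adjusted p = 0.0121). In marker-filtered cells Igfbp7 and Igf1r rose as well, but the Igf1r call ended whichever library was left out. Of the 14 retinoid and prostaglandin genes reported here only the phospholipase gene Pla1a passed (median 0.04). It was at 1.25, 4.68 and 2.74 CPM against 23.4, 44.3 and 23.3 CPM (log2 -3.20 ± 0.20, edgeR adjusted p = 0.00228). In marker-filtered cells Aldh1a1 rose and 5 genes of that list fell (median -0.27). Among 24 mesenchymal transcription factors, Hoxd11, a homeobox gene of the posterior body axis, rose from 5.50, 14.4 and 11.0 CPM to 22.6, 32.7 and 22.02 CPM (log2 1.21 ± 0.18, edgeR adjusted p = 0.0317), and Prrx1, a homeobox gene of limb and fibroblast mesenchyme, fell from 39.9, 62.4 and 45.8 CPM to 11.3, 17.6 and 17.3 CPM (log2 -1.60 ± 0.15, edgeR adjusted p = 0.00827). Meox2 fell too, and the list's median was -0.07. In marker-filtered cells 3 of 21 rose (Hoxd11, Hoxd10 and Tcf21) and 4 fell (Prrx1, Klf4, Ebf1 and Zeb1), with a median of 0.02, and without GFP-low replicate 2 the calls of Hoxd10, Tcf21 and Klf4 ended, that of Hoxd10 also without replicate 1. The Hoxd11 call ended without GFP-low replicate 1 (log2 1.33) or replicate 2 (log2 1.41).

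Genes known from Pi16-positive, Dpp4-positive fibroblasts, an adventitial population with progenitor features, were lower in Grem1-high cells, although cells with a Pi16 UMI had been removed from both classes. Of 11 tested, 6 fell, none rose and the median was -1.07, and in marker-filtered cells 9 fell, none rose and the median was -1.16. The list was chosen with earlier results of these data known. Dpp4, a membrane peptidase, was at 1.25, 1.63 and 2.23 CPM in Grem1-high and at 12.4, 28.4 and 25.1 CPM in Grem1-low cells (log2 -3.68 ± 0.25, edgeR adjusted p = 0.00245). Efhd1, which encodes a calcium-binding protein, was at 2.51, 2.03 and 1.21 CPM against 42.6, 29.9 and 21.7 CPM (log2 -3.98 ± 0.20, edgeR adjusted p = 0.00147). The other 4 that fell were Ackr3, Anxa3, Limch1 and Ugdh, and Ugdh, which makes a precursor of hyaluronan, was at 324, 260.1 and 535 CPM against 616, 888 and 1421 CPM. Cd248 and Sema3c did not pass in all gated cells (log2 -0.65 and -0.44) and passed in marker-filtered cells. In Pi16-positive cells of the same libraries Dpp4 was at 8.71, 39.8 and 20.7 CPM and Efhd1 at 38.3, 45.2 and 35.0 CPM. The number of Grem1-low cells that express Pi16 without a captured UMI was not tested.

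Outside the lists, the largest rise among called genes with at least 50 CPM was in Piezo2, which encodes a mechanically gated ion channel. It was at 151, 109 and 90.3 CPM against 31.6, 14.8 and 13.9 CPM (log2 2.70 ± 0.14, edgeR adjusted p = 0.00147), and the call held in all 19 alternatives. The next were Masp1, a protease that starts the lectin pathway of complement (64.0, 51.6 and 56.2 CPM against 16.5, 15.9 and 14.1 CPM, log2 1.91), Mamdc2 (log2 1.90), Ogfrl1 (log2 1.81) and the cell junction gene Cgnl1 (164, 274 and 156 CPM against 44.0, 97.3 and 63.8 CPM, log2 1.55). Robo2, a receptor of Slit guidance proteins, followed with 99.1, 70.1 and 78.3 CPM against 22.01, 31.0 and 30.9 CPM (log2 1.47). Ogfrl1 and Robo2 lost their calls without GFP-low replicate 2 (log2 1.86 and 1.59).

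The largest falls chosen in the same way were in Cd74, Srgn, Basp1, Npy1r, S100a4 and Gja1. Npy1r, a receptor of neuropeptide Y, was at 14.4, 7.63 and 18.5 CPM against 71.5, 43.1 and 81.6 CPM (log2 -2.25 ± 0.14, edgeR adjusted p = 0.00228). Gja1, which encodes the gap junction protein connexin 43, was at 33.2, 14.4 and 13.6 CPM against 107, 60.2 and 62.0 CPM (log2 -1.97), Basp1 at 14.4, 19.7 and 10.6 CPM against 50.9, 90.1 and 67.8 CPM (log2 -2.30) and S100a4 at 19.4, 7.53 and 12.8 CPM against 144, 21.95 and 52.3 CPM (log2 -2.06). None of these 4 genes overlapped between the classes, but they were chosen as the largest falls with the same direction in each library, so this adds no support. The share of all tested genes without overlap was not counted. Cd74, the invariant chain of MHC class II molecules, and Srgn, a proteoglycan of blood cell granules, differed by -2.51 and -2.33 over all gated cells, but in marker-filtered cells Cd74 was higher in Grem1-high cells (log2 1.20 ± 0.26, edgeR adjusted p = 0.00101) and Srgn was too low to test.

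**Figure D3:**
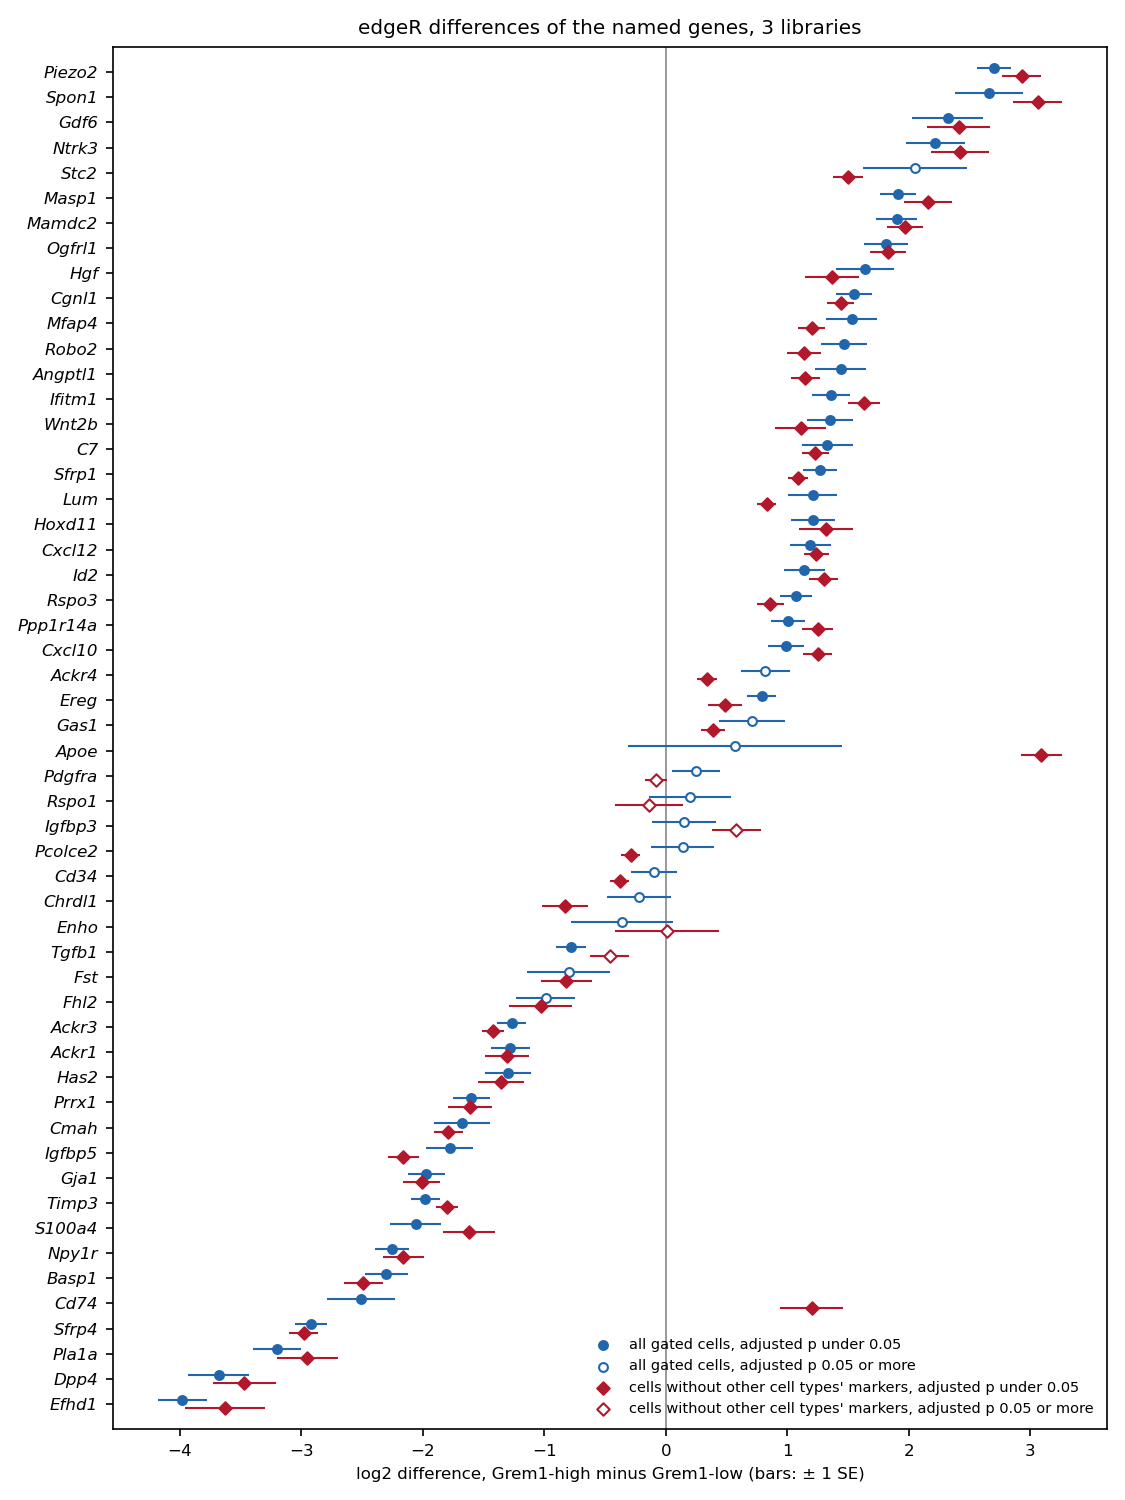
Log2 differences between Grem1-high and Grem1-low cells (± 1 SE, edgeR on 3 libraries) for the named genes, over all gated cells (blue circles) and in marker-filtered cells (red diamonds), with filled symbols for an adjusted p under 0.05. Both estimates lie close together for nearly all genes, from Piezo2 at 2.70 and 2.93 to Efhd1 at -3.98 and -3.63, and far apart for Apoe (0.57 and 3.09) and Cd74 (-2.51 and 1.20). The marker filter itself requires Pdgfra, so its red diamond is no test.

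The Grem1 share of each cell was also split into 5 bands, under 0.03%, 0.03 to 0.1%, 0.1 to 0.2%, 0.2 to 0.4% and at least 0.4%. The bands use the measure that chose the cells, so they are a description. Rspo3, Sfrp1, C7, Spon1, Piezo2, Masp1, Ogfrl1, Cgnl1, Ifitm1, Ppp1r14a and Angptl1 rose from each band to the next in all 3 libraries, and Npy1r fell from each to the next in all 3. Inside the Grem1-high cells alone, Piezo2 went from 57.0 to 138 and 209 CPM in whole mesenchyme, from 62.5 to 95.7 and 147 CPM in GFP-low replicate 1 and from 45.2 to 73.5 and 121 CPM in GFP-low replicate 2. Rspo3 went from 103 to 157, from 174 to 230 and from 212 to 257 CPM between the lowest and the highest Grem1-high band of the 3 libraries. These genes were picked for this order from the 61 named ones, and others, such as Hgf and Wnt2b, did not rise through all bands in any library. Cells near the limit held few Grem1 UMIs and may fall on either side of it, so the bands cannot show whether a step lies at 0.1%. Median UMIs per cell rose with the band as well in whole mesenchyme, from 3739 to 6373.5, and lay between 5235 and 7186 in GFP-low replicate 1 and between 6980 and 7690.0 in GFP-low replicate 2. The part of depth in these levels was not tested.

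**Figure D4:**
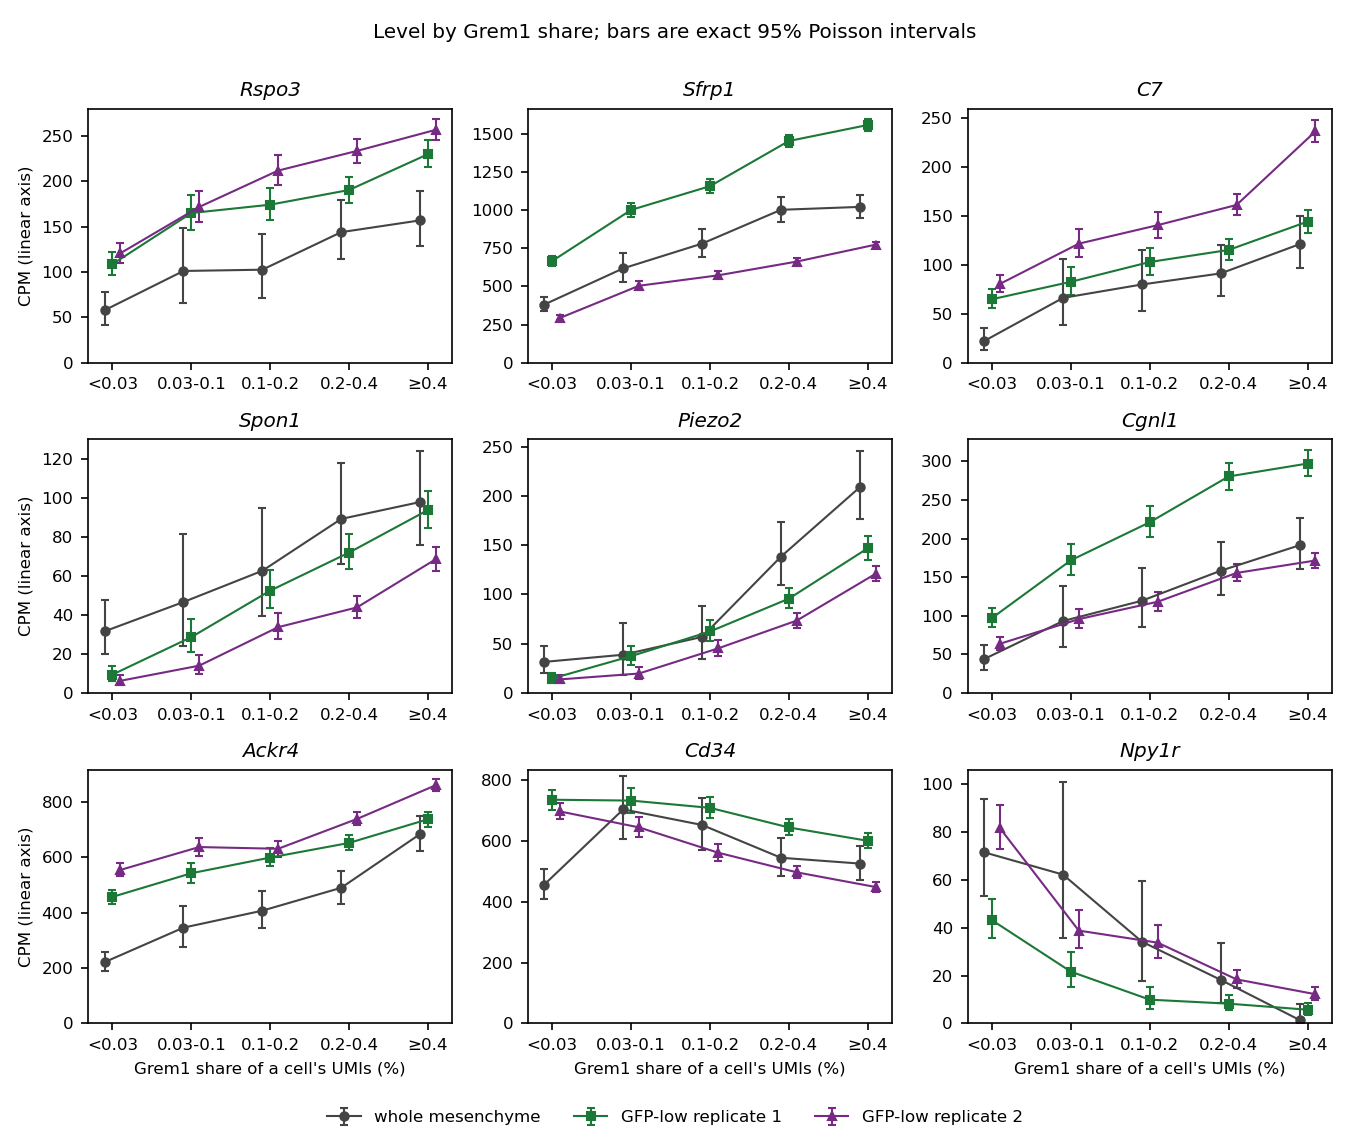
Summed level (CPM, linear axis) of 9 genes by the Grem1 share of a cell's UMIs, one line per library, with exact 95% Poisson intervals that cover counting error only. Rspo3, Sfrp1, C7, Spon1, Piezo2 and Cgnl1 rise through all 5 bands and Npy1r falls, from 71.5, 43.1 and 81.6 CPM to 1.44, 5.76 and 12.2 CPM, while Ackr4 rises less steeply and Cd34 falls in the GFP-low libraries.

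Grem1-high cells were then set against Pi16-positive cells, which had the same limits but at least 1 UMI of Pi16 and any level of Grem1 (86, 710 and 748 cells). These cells held Grem1 at 1938, 944 and 1137 CPM, against 3815, 3873 and 4370 CPM in Grem1-high cells. Of 11181 genes tested, 1036 were higher (9.27%) and 844 lower (7.55%) in Grem1-high cells. Of the 11 genes of the BMP and GDF ligand list tested, 3 rose and 3 fell, and of 11 genes of the antagonist list Htra1 rose (log2 0.57) and Fst, Fstl1 and Nbl1 fell (log2 -0.81, -0.82 and -0.29). Without GFP-low replicate 2 the calls of Fst (log2 -0.11) and Nbl1 (log2 -0.23) ended, and that of Nbl1 also in marker-filtered cells (log2 -0.24). Rspo3 was at 94.0, 125 and 186 CPM in Pi16-positive cells (log2 0.56 ± 0.08, edgeR adjusted p = 7.49e-05) and Rspo2 at 6.97, 0.808 and 0.637 CPM (log2 2.19 ± 0.44, adjusted p = 0.0023). The Rspo2 call ended without GFP-low replicate 1 (log2 1.25). Ackr4 differed by 0.50 ± 0.07 (adjusted p = 7.8e-05), from 383, 487 and 569 CPM in Pi16-positive cells.

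Of the progenitor-like genes 10 of 12 tested were lower in Grem1-high than in Pi16-positive cells and 1, Plac8, was higher (median -1.42), a call that ended without GFP-low replicate 2 (log2 0.34). The genes with the largest differences among abundant genes were Apoe, a lipid carrier (270, 229 and 163 CPM against 45.3, 38.8 and 21.97 CPM, log2 2.72 ± 0.09), Piezo2 (log2 2.14), Ifitm1 (log2 1.63), Stc2 (log2 1.61) and Ppp1r14a (log2 1.60) on the higher side. On the lower side were Npy1r (log2 -3.24), Igfbp5 (log2 -2.93), Sfrp4 (log2 -2.90), Cmah (log2 -2.28) and Timp3 (log2 -2.09). Without GFP-low replicate 1 the counts were 548 and 398, without GFP-low replicate 2 they were 381 and 342, and in marker-filtered cells 640 (6.21%) and 506 (4.91%). This comparison shares the Grem1-high cells with the one above, so the 2 are not independent.

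Adamdec1 fibroblasts, which lie along the lamina propria, had at least 0.2% of UMIs from Adamdec1, no Pi16, fewer than 2 endothelial UMIs and Grem1 under 0.1% (4727, 947 and 1154 cells). Of 12100 genes tested, 1417 were higher (11.7%) and 1503 lower (12.4%) in Grem1-high cells. Of the 11 genes of the BMP antagonist list, 5 were higher and 2 lower (median 0.74), and of 13 BMP and GDF ligands 3 were higher and 7 lower (median -0.91), beside a median of -0.007 for all genes. Of these, Chrdl1 was at 1.16, 0.804 and 1.499 CPM in Adamdec1 cells (log2 4.24 ± 0.23, edgeR adjusted p = 3.3e-05), and Gas1, the Hedgehog co-receptor, at 2.73, 5.15 and 7.09 CPM against 138, 196 and 155 CPM (log2 5.22 ± 0.21, adjusted p = 1.37e-05). Among the ligands Bmp5 was at 322, 154 and 205 CPM against 16.3, 9.77 and 16.3 CPM (log2 -3.79, adjusted p = 1.62e-05), whereas Gdf6 was higher in Grem1-high cells (log2 5.61 ± 0.30, adjusted p = 2.84e-05).

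Rspo1, Rspo2 and Rspo3 were all higher in Grem1-high than in Adamdec1 cells (log2 1.73 ± 0.25, 2.98 ± 0.39 and 2.31 ± 0.14, edgeR adjusted p = 0.00252, 0.00142 and 3.99e-05), with Rspo3 at 28.6, 54.8 and 45.1 CPM in Adamdec1 cells. Of the 14 R-spondins and Wnt ligands tested 5 were higher and 6 lower (median -0.34). Wnt4 was among the lower ones, at 7.53, 1.42 and 3.06 CPM against 195, 256 and 272 CPM (log2 -6.35 ± 0.35, edgeR adjusted p = 3.3e-05). Ackr4 differed by 5.65 ± 0.44 (edgeR adjusted p = 0.000125). Angptl1 (log2 5.88), Pcolce2 (log2 5.20) and Piezo2 (log2 5.13) were other large rises, and Igfbp5 (log2 -4.83), Fhl2 (log2 -4.79), Igfbp3 (log2 -4.76) and Enho (log2 -5.19) other large falls.

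Sfrp1, Hgf, Spon1, Cxcl12 and Robo2, which were higher in Grem1-high than in Grem1-low cells, were lower than in Adamdec1 cells (log2 -0.70, -1.46, -0.47, -1.61 and -1.04, edgeR adjusted p = 0.023, 0.00139, 0.0107, 0.000776 and 0.00133). The same held for Ereg, Hoxd11, Ifitm1 and Ppp1r14a (log2 -2.68, -1.45, -1.69 and -1.62, edgeR adjusted p = 3.3e-05, 0.000362, 5.44e-05 and 5.07e-05). Ereg was at 1684, 534 and 570 CPM in Adamdec1 cells. Hgf was at 74.4, 130.4 and 128 CPM in Adamdec1 cells, and Cxcl12 at 1916, 3255 and 2512 CPM, both above the Grem1-high levels in all 3 libraries. In marker-filtered cells the counts were 1044 higher (9.53%) and 1011 lower (9.23%), and Spon1 did not pass there (log2 -0.34). Without GFP-low replicate 1 the calls of Sfrp1 (log2 -0.55) and Spon1 (log2 -0.42) ended, and without GFP-low replicate 2 that of Sfrp1 (log2 -0.58). Without GFP-low replicate 1 the counts were 744 and 895. Free RNA held Adamdec1 at 7962, 1960 and 1783 CPM, and Adamdec1 in summed Grem1-high cells was 489, 187 and 145 CPM.

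**Figure D5:**
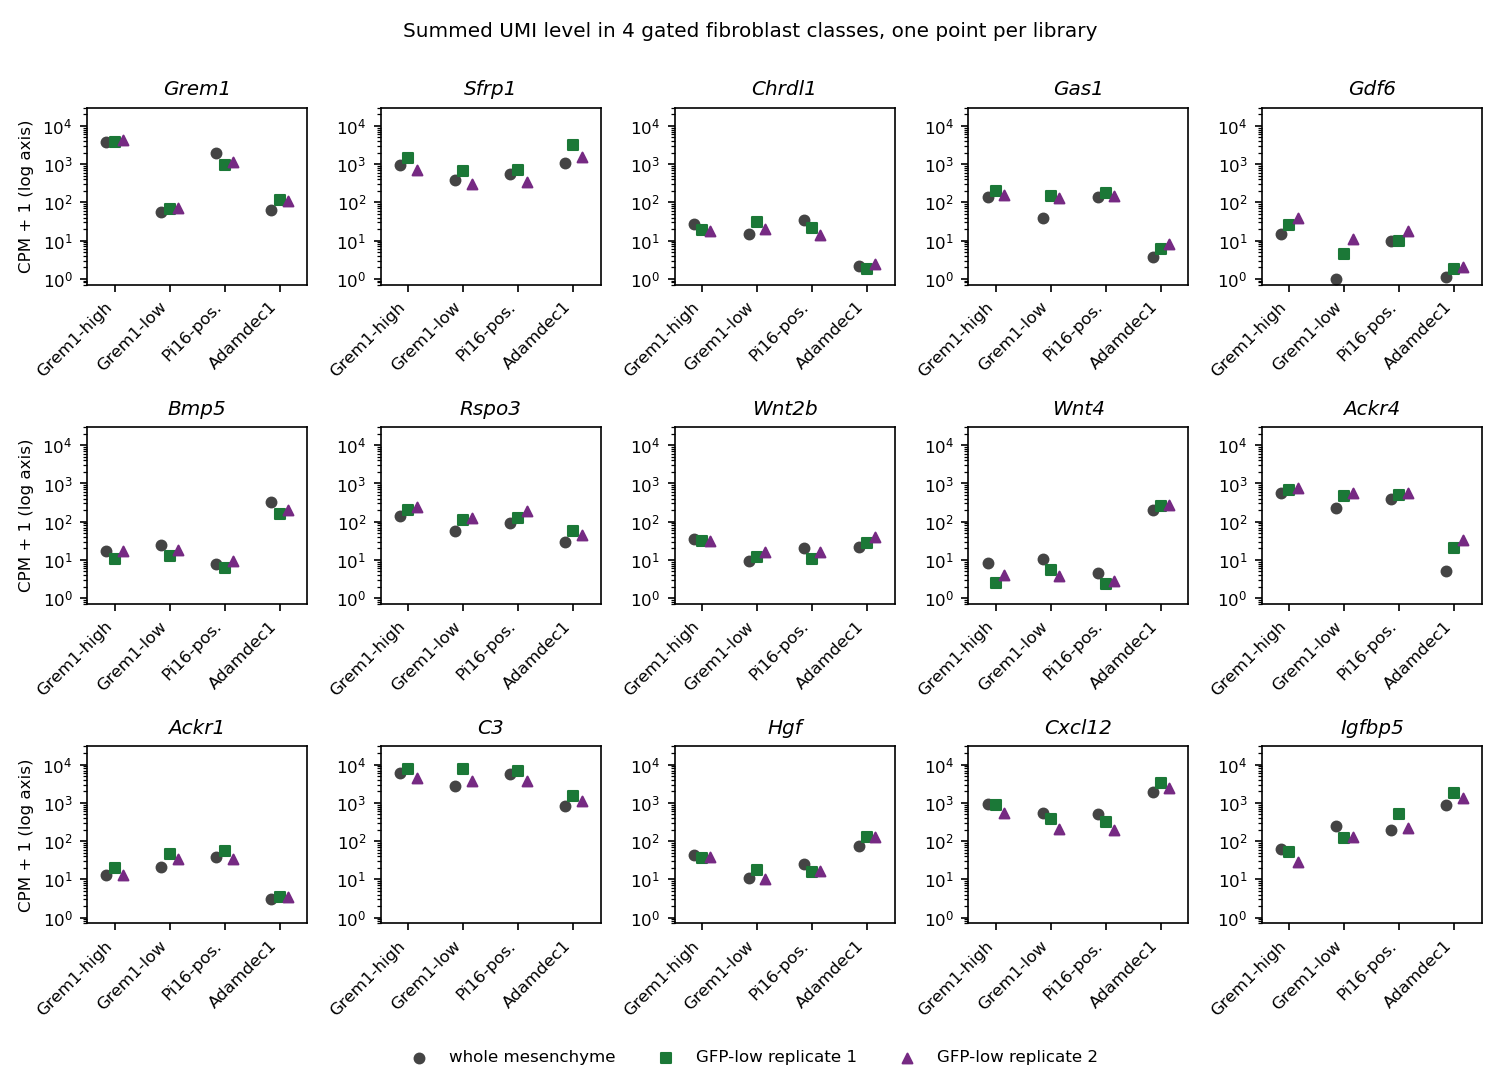
Summed level (CPM + 1, log axis) of 15 genes in Grem1-high, Grem1-low, Pi16-positive and Adamdec1 cells, one point per library. Chrdl1 and Gas1 are shared by the first 3 classes and nearly absent from Adamdec1 cells, and Wnt4 and Bmp5 show the reverse.

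Between libraries the Grem1-high cells were alike in most genes, which is described without a test. Of 3435 genes with at least 50 CPM in a library, 27 were at least 2-fold above and 20 at least 2-fold below both GFP-low libraries in whole mesenchyme. Between the GFP-low replicates 232 differed at least 2-fold in either direction. The counts of 27 and 20 need a difference from both libraries at once, a stricter rule, so they cannot be compared with the 232. On the higher side in whole mesenchyme were Xist, several predicted genes and ribosomal pseudogenes and the muscle genes Acta2 (89.7 against 5.90 and 4.28 CPM) and Tagln (105 against 7.63 and 6.45 CPM). On the lower side were Pamr1 (16.3 against 116 and 105 CPM), H2-Q4 (97.8 against 734 and 594 CPM) and Aldh1a1, an enzyme of retinoic acid synthesis (20.1 against 96.1 and 77.0 CPM). Sort, genotype, library, the sign of sex from Xist and the level of muscle RNA differ together here and cannot be told apart.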

How the data were processed

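The authors deposited, for each single-cell library, a matrix of UMI counts per gene and barcode. They were made from 10x 3' v3.1 libraries of about 8000 loaded cells per the labels' protocols, with Cell Ranger 3.0.2 and build mm10 per the submitters' processing notes. All barcodes are in the files, so cells were taken at 1000 UMIs, 500 genes and 20% mitochondrial UMIs. The other samples of the series' 33 were not used here. No free RNA was subtracted and no doublet caller was run.

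UMI counts were summed per library and class, filtered with filterByExpr, scaled by TMM and tested with edgeR 4.0.16 (R 4.3.3) by the quasi-likelihood test with library as a block, because both sums of a library come from 1 suspension. Benjamini-Hochberg adjustment covered all genes tested, with the 6 gate genes left out, and the threshold was 0.05. CPM are per 1000000 UMIs of a class. Grem1-high sums of both GFP-low libraries were compared over 12135 genes and were further apart than counting error (chi-square divided by its degrees of freedom 99.8), so they are not copies of 1 library, which does not show that they came from separate mice. On simulated counts for the Grem1-low comparison (10523 genes) the test recovered 84.5% of genes changed by 1 and 100% of those changed by 2 on the log2 scale, and 2.72% of its calls were false. The simulated counts had less spread than the data, whose biological coefficient of variation was 0.138, and the same change in each library. Changed genes were drawn only from those above a minimum count. These rates therefore belong to an easier setting and are not the rates in these data. Alternatives were DESeq2 1.42.0, other scaling, filters, limits on Grem1, Cd81, mitochondria and depth, leaving out each library, no block and marker-filtered cells. Those markers leave out Hhip, Pdpn, Thy1, Kit, Tagln and Krt8. No per-sample column went unused. Marker-filtered fits with a library left out or with thinning were chosen after seeing the data.

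Named genes were 12 fixed names (Grem1, Cd81, Ackr4, Pi16, Adamdec1, Cd34, Pdgfra, Rspo1, Rspo2, Rspo3, Chrdl1 and Fst), up to 2 in each of 22 lists with the largest difference at 20 CPM or more that passed and agreed in direction in all libraries, the 6 largest each way outside lists at 50 CPM and the 5 largest each way at 100 CPM in the other comparisons. Other list members are named where a count of 5 or fewer is given or a level is described, and were then chosen after their values were seen. The cells, lists and genes were chosen with earlier results of these data known. Of the list entries, Ccn2 and Pla2g2a matched no symbol in the files. Some genes of the lists are not reported here and are left out of the lists' counts and medians.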

Additional observations from a re-analysis of the deposited data

Results flagged for a closer look

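In 6 genes the whole mesenchyme library moved opposite to both GFP-low libraries between Grem1-high and Grem1-low cells. The difference between the sorts was not tested, since there is 1 whole mesenchyme library. The log2 difference in whole mesenchyme was 0.29 for Cd34, 0.86 for Chrdl1, -2.35 for Apoe, 0.90 for Pcolce2, -1.74 for Enho and -0.90 for Igfbp3. In GFP-low replicates 1 and 2 it was 1.28 and 2.35 for Apoe. Apoe stood at 1379 CPM in whole mesenchyme Grem1-low cells, where the markers of muscle, pericytes, endothelium and glia also stood high, and at 59.4 CPM in the marker-filtered cells of that class, below the 270 CPM of all Grem1-high cells.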

How the results depend on the processing

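The counts of genes higher and lower in Grem1-high than in Grem1-low cells (77 and 94) moved with the processing, and each pair here gives higher and then lower. They were 116 and 112 with DESeq2, 226 and 289 with no filter on low counts, 134 and 135 with Grem1-high at 0.2% or more, 17 and 26 with Grem1-low at 0 UMIs, 39 and 33 with cells thinned to 3000 UMIs, 145 and 142 with at most 10% mitochondrial UMIs, 49 and 51 without the 6% of cells with the most UMIs, 452 and 433 in marker-filtered cells and 201 and 169 when these were also thinned. With 1 library left out the counts ran from 14 to 541 and from 31 to 582, and in marker-filtered cells they were 528 and 521 (whole mesenchyme left out), 336 and 261 (GFP-low replicate 1) and 220 and 222 (GFP-low replicate 2). Against Pi16-positive cells (1036 and 844) DESeq2 gave 362 and 332 and marker-filtered cells gave 640 and 506, and leaving out 1 library gave 381 to 1321 and 342 to 1147. Against Adamdec1 cells (1417 and 1503) leaving out 1 library gave 744 to 1926 and 895 to 1828. With no replicate block, and so without pairing the sums of a library, the counts were 5 and 8, 37 and 45, and 604 and 771 in the 3 comparisons, and 8 of the 42 named genes that passed still did. The cause of these moves was not tested. The share of Grem1-high cells became 62.2% (thinned) and 73.2% (marker-filtered) in whole mesenchyme, 68.9% (thinned) and 68.0% (Cd81 at 2 UMIs or more) in GFP-low replicate 1, and 71.9% (marker-filtered) in GFP-low replicate 2.

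Log2 differences from Grem1-low cells changed sign in 9 named genes, of which Cd74 alone had passed. Cd74 (-2.51) was 1.20 in marker-filtered cells, and in these 1.17 without whole mesenchyme or 1.35 without GFP-low replicate 2. With 1 library left out the differences ran from -0.49 to 1.79 for Apoe (0.57 with all 3), -0.09 to 0.54 for Igfbp3 (0.15), -0.33 to 0.10 for Cd34 (-0.10), -0.42 to 0.25 for Chrdl1 (-0.22), -0.71 to 0.22 for Enho (-0.36), -0.24 to 0.37 for Pcolce2 (0.14), -0.01 to 0.53 for Pdgfra (0.25) and -0.08 to 0.86 for Rspo1 (0.20). Without the block Apoe was -1.05 and Igfbp3 -0.07. Igfbp3 was -0.08 without GFP-low replicate 1. Cd34 was 0.04 with Grem1-low at 0 UMIs and 0.12 thinned. In marker-filtered cells Enho, Pcolce2, Pdgfra and Rspo1 were 0.01, -0.29, -0.08 and -0.14, and after dropping whole mesenchyme from these 0.00, -0.33, -0.05 and -0.22. In marker-filtered cells without GFP-low replicate 1 Enho was 0.43, Pcolce2 -0.27 and Pdgfra -0.01, and without GFP-low replicate 2 Pcolce2 was -0.27, Pdgfra -0.19 and Rspo1 -0.69. The filter requires a Pdgfra UMI, so the filtered Pdgfra values are no test of Pdgfra. Thinned marker-filtered cells gave -0.29 for Pcolce2 and -0.18 for Rspo1, and equal cell numbers gave -0.04 for Rspo1. Sfrp4, Pla1a, Piezo2 and Basp1 passed with 1 sign in all 19 alternatives. The whole mesenchyme Grem1-low sum holds 727091 UMIs, so a gene at 0 there may reach 4.13 CPM.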
